A study of Mus musculus with 8 samples.

Results

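The miR-15/16 family is a group of microRNAs (miRNAs) with the same seed, the stretch near the 5′ end that pairs with target messages. It comprises mmu-miR-497, mmu-miR-195, mmu-miR-16, mmu-miR-15b, mmu-miR-15a and mmu-miR-322, where the prefix stands for the mouse. These 6 were taken by assay name, main strands only, from 517 mouse miRNA assays of a real-time PCR study of early atherosclerosis. All 6 were found, and 4 of them were detected often enough to be tested.

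The study used female apoe-/- mice, which lack apolipoprotein E, aged 6 to 8 weeks, fed for 3 months with a high-fat diet (19.5% casein and 21% fat, with cholesterol at 0.15%). Plaque and morphologically normal vessel wall were cut by laser capture from 20 µm arterial sections, at least 40 sections a mouse. The plaque group (plaque 1 to 4) is labelled as tissue of the aortic root and the undiseased group (undiseased artery 1 to 4) as artery, so that plaque and vessel site cannot be told apart. Both groups carry the same genotype and had the same diet, and each sample is labelled a biological replicate. Whether a mouse gave both tissues is not in the labels. The study's design also names 10 months of diet, which was not analysed here.

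A miRNA of this family is cut from a hairpin precursor and guides the silencing complex to messages that match its seed. Among the messages they are known to repress are those of cyclins D1 and E1, the kinase Chek1 and the survival factor Bcl2, and the family is known for slowing the cell cycle. The linked pair miR-15a and miR-16 is deleted in many human chronic lymphocytic leukaemias. In the mouse heart, miR-195 rises after birth as cardiac muscle cells stop dividing, and in cultured smooth muscle cells it is known to restrain proliferation.

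The 6 mature sequences are shown because the shared seed defines the family and because the bases after it tell the members apart. They were matched by name in RefSeq (GRCm38.p6), where the assays' miR-195 and miR-497 correspond to miR-195a-5p and miR-497a-5p and the others to the 5p strand. Capitals mark the seed, bases 2 to 8.
miR-497: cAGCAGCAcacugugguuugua
miR-195: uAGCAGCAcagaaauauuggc
miR-16: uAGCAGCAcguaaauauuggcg
miR-15b: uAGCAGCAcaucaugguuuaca
miR-15a: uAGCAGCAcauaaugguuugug
miR-322: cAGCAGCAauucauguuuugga
All 6 hold AGCAGCA at these positions, as do 10 of the 1679 mature mouse miRNAs of the table. The other 4, miR-195b, miR-6342, miR-6353 and miR-6419, have no assay of those names here. The first base is U in 4 members and C in miR-497 and miR-322. Counted from the 5′ end without gaps, miR-16 and miR-195 share 19 of 21 bases, miR-15a and miR-15b 18 of 22, and miR-195 and miR-497 12 of 21. The deposited table gives no probe sequences, and how far each assay distinguishes such similar miRNAs was not measured here.

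The members come from 4 places in the genome (GRCm38.p6, mature miRNA positions). miR-497 (chr11:70234730-70234751, plus strand) and miR-195 (chr11:70235062-70235082, plus strand) are neighbours with 241 bases between their hairpins. miR-15b (chr3:69009775-69009796, plus strand) and a copy of miR-16 (chr3:69009918-69009939, plus strand) lie within Smc4, which encodes a condensin subunit. The other copy of miR-16 (chr14:61631936-61631957, minus strand) and miR-15a (chr14:61632075-61632096, minus strand) lie within the long non-coding RNA gene Dleu2. Both miR-16 copies give the same mature sequence, so its assay cannot tell the chromosomes apart. miR-322 (chrX:53054306-53054327, minus strand), the mouse counterpart of human miR-424, lies within the non-coding gene C430049B03Rik beside miR-503.

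Each value is a threshold cycle (Ct), the PCR cycle in which the product becomes visible, and it is lower where there is more RNA. An assay was taken as detected when its Ct was under 35. To give a normalised level, the Ct was subtracted from the sample's own mean Ct over the 124 miRNAs found in all 8 samples. The level is on a log2 scale, where a step of 1 stands for a 2-fold difference at full PCR efficiency, and levels of different assays are not comparable. Plaque samples amplified later: that mean was 28.0 ± 1.65 in plaque and 25.3 ± 0.885 in undiseased artery (SD, n = 4 each, exact permutation test, two-sided, p = 0.0571), and 148 to 240 miRNAs were detected in plaque, against 227 to 288 in undiseased artery. The 172 miRNAs found in 3 or 4 plaque samples and in 3 or 4 undiseased ones were compared with limma, with Benjamini-Hochberg adjustment over all 172 and a threshold of 0.05.

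The linked pair miR-497 and miR-195 was lower in plaque, while the differences of miR-16 and miR-15b did not pass the test. Of the 4 tested members, 2 fell and 0 rose. Of all 172 tested miRNAs 34.3% were called, 18.6% lower (32) and 15.7% higher (27) in plaque. By the reference subtracted this split ran to 37 lower and 11 higher with quantile normalisation, 81 lower and 0 higher on raw Ct, and 2 lower and 0 higher with control RNAs. The median log2 fold change (plaque over undiseased artery) was -0.95 over the 4 tested members and -0.11 over all 172. Every member was assayed on the first of 2 panels, where the median over 109 tested miRNAs was -0.73 and 27.5% were called lower. The second panel's 63 tested miRNAs had a median of 0.82. The 2 members called lower of 4 tested are too few to be set apart from that share. In bulk tissue such as this, fewer cells of a type and less RNA per cell cannot be told apart.

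miR-497, whose sequence opens with C, was the member with the largest difference among those tested. Its raw Ct was 29.5, 31.7, 33.0 and 28.3 in plaque 1 to 4, against 26.1, 25.7, 25.3 and 27.4 in undiseased artery 1 to 4. The normalised levels were -2.35, -2.82, -3.10 and -1.99 in plaque and -1.09, -0.70, -0.59 and -0.78 in undiseased artery. All plaque levels lay below all undiseased ones. The groups' means were -2.57 ± 0.491 in plaque and -0.79 ± 0.217 in undiseased artery (SD, n = 4 each). The log2 fold change was -1.78 (SE 0.434, 95% interval -2.73 to -0.82, adjusted p = 0.0146), a 3.43-fold lower level. It ranked 23 of 172 from the most negative, and 21 of 109 within its panel.

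miR-195, the neighbour of miR-497, fell by less and varied little. Its raw Ct was 27.9, 29.5, 30.7 and 26.7 in plaque 1 to 4 and 24.9, 24.4, 24.0 and 26.0 in undiseased artery 1 to 4. After normalisation the levels were -0.76, -0.66, -0.78 and -0.47 in plaque and 0.16, 0.57, 0.72 and 0.67 in undiseased artery. Although plaque Ct values spanned several cycles, the plaque levels of miR-195 lay close together, because its Ct moved with the mean of the 124 miRNAs. Plaque averaged -0.67 ± 0.140 and undiseased artery 0.53 ± 0.255 (SD, n = 4 each), without overlap. The log2 fold change was -1.20 (SE 0.401, 95% interval -2.08 to -0.32, adjusted p = 0.0407), 2.30-fold lower and rank 45 of 172. Groups did not overlap in 32.6% of all tested miRNAs.

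**Figure D1:**
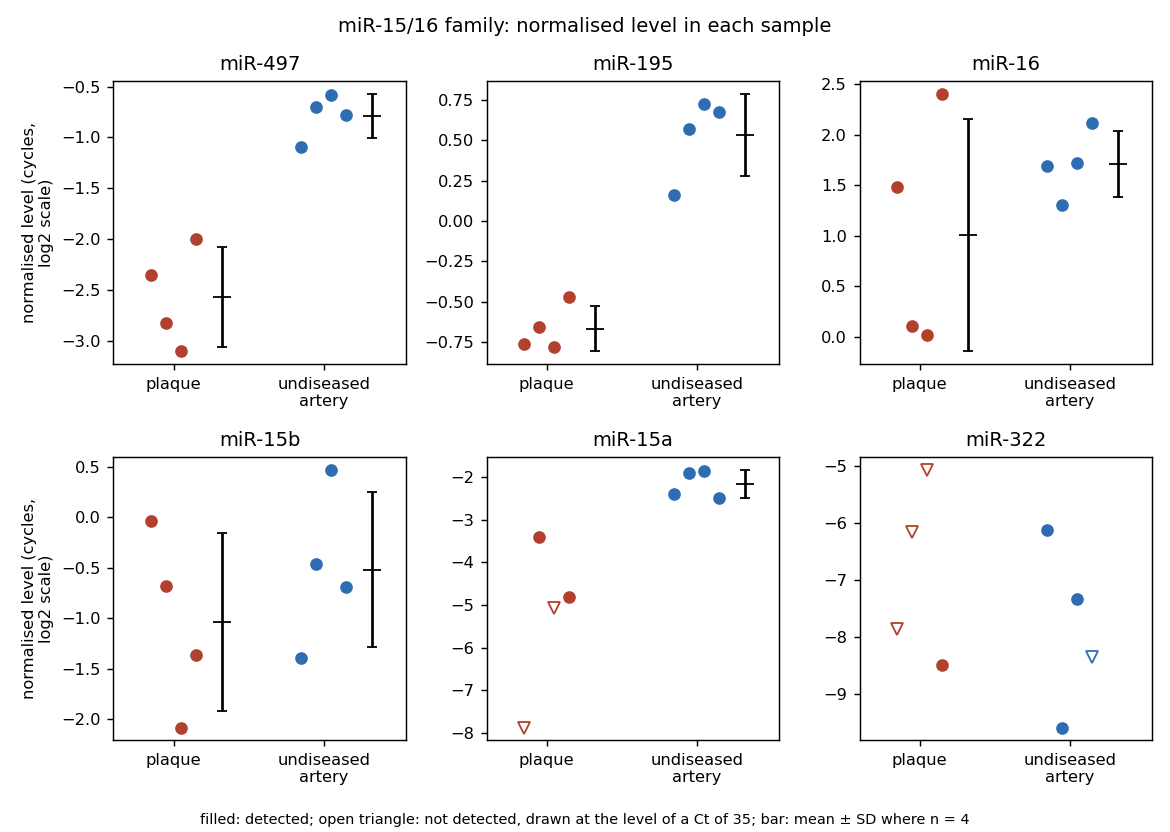
Normalised level (cycles, log2 scale, own axis range in each panel) of the 6 family miRNAs in plaque (red, left) and undiseased artery (blue, right), with 1 point a sample in the order 1 to 4 and the mean ± SD where all 4 samples detected the miRNA. Open triangles stand at the level of a Ct of 35, above which a miRNA that was not detected cannot lie unless its well failed. For miR-497, miR-195 and miR-15a every plaque point is below every undiseased one, whereas miR-16, miR-15b and miR-322 overlap.

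miR-16, which is expressed in most mammalian tissues, split the plaque samples. Its levels were 1.48, 0.11, 0.02 and 2.40 in plaque 1 to 4, against 1.69, 1.31, 1.72 and 2.11 in undiseased artery 1 to 4. Plaque 1 and 4 lay within or above the undiseased range and plaque 2 and 3 below it. Plaque 2 and 3 are also the samples with the fewest miRNAs detected, 175 and 148, and the latest mean Ct, 28.8 and 29.9. The part of this in the result was not tested. Means were 1.00 ± 1.15 in plaque and 1.71 ± 0.328 in undiseased artery (SD, n = 4 each), with a log2 fold change of -0.70 (SE 0.583, 95% interval -1.98 to 0.57, adjusted p = 0.380). Without plaque 2 and 3 the value was 0.23 (adjusted p = 0.770), above 0, and without plaque 4 it was -1.17 (adjusted p = 0.0598). Leaving out plaque 2 gave -0.41 and leaving out plaque 3 gave -0.38.

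miR-15b, which shares the Smc4 locus with a copy of miR-16, overlapped between groups too. Its levels were -0.03, -0.68, -2.09 and -1.36 in plaque 1 to 4, and -1.39, -0.47, 0.47 and -0.69 in undiseased artery 1 to 4. High and low samples occurred in both groups, with undiseased artery 1 at the level of plaque 4. The means were -1.04 ± 0.883 in plaque and -0.52 ± 0.768 in undiseased artery (SD, n = 4 each). The log2 fold change of -0.52 (SE 0.577, 95% interval -1.79 to 0.75) had an adjusted p of 0.495. It was -0.17 without plaque 3 and -0.85 without plaque 1. The order within plaque also differed from that of miR-16: plaque 4 was highest for miR-16 and plaque 1 for miR-15b. The intervals of miR-16 and miR-15b include falls as large as those of the chromosome 11 pair.

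**Figure D2:**
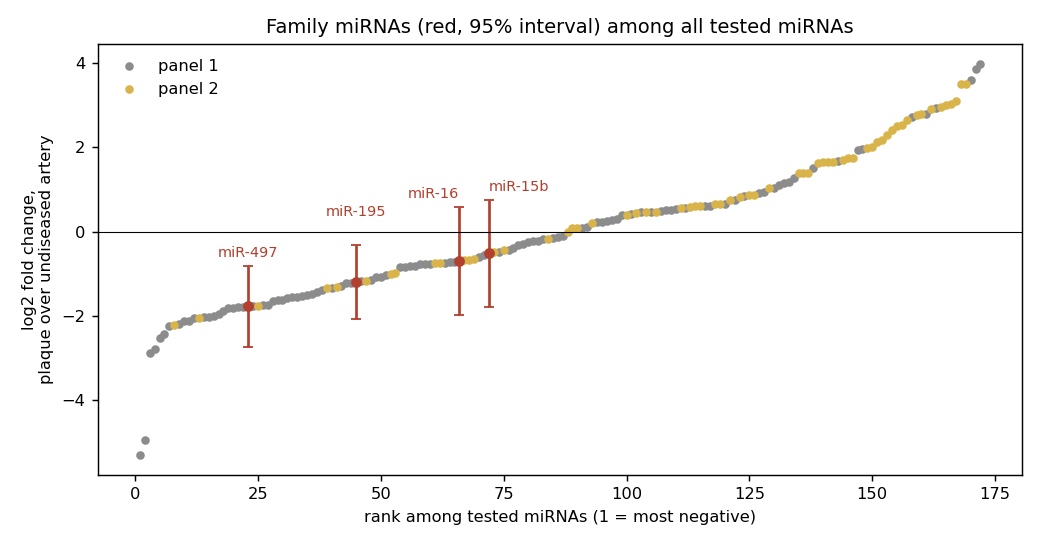
Log2 fold change, plaque over undiseased artery (y axis), of the 172 tested miRNAs by rank (x axis), with panel 1 in grey, panel 2 in yellow and the 4 tested family miRNAs in red with limma's 95% interval. miR-497 stands at rank 23 and miR-195 at rank 45, and the intervals of miR-16 and miR-15b cross 0.

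miR-15a, the Dleu2 member, was detected in 2 of 4 plaque and 4 of 4 undiseased samples, a difference that Fisher's exact test did not pass (two-sided p = 0.429). Its raw Ct was 32.2 in plaque 2 and 31.1 in plaque 4, and 27.4, 26.9, 26.5 and 29.1 in undiseased artery 1 to 4. The levels of -3.40 and -4.82 in these plaque samples were below the undiseased levels of -2.49 to -1.86. In plaque 1 the assay read 40, which places it below a level of -7.87 unless the well failed. It read 40 in plaque 3 too, where a Ct of 35 stands for a level of -5.07. Such readings also occurred beside early ones: let-7a read 40 in undiseased artery 4 and 22.0 to 22.3 in undiseased artery 1 to 3. Whether wells failed was not tested. The reading of miR-15a in plaque 1 differed from that of its relatives there, since miR-15b had a Ct of 27.2 and miR-16 of 25.6. If that well did not fail, the Ct of miR-15a exceeded that of miR-15b by at least 7.84 cycles in plaque 1. The excess was 2.72 in plaque 2 and 3.45 in plaque 4, against 1.00 to 2.32 in the 4 undiseased samples. Of 115 miRNAs that amplified at least as early as miR-15a in undiseased artery, 5 were not detected in plaque 1, 16 in plaque 2, 20 in plaque 3 and 2 in plaque 4. With no filter on detection, limma gave miR-15a a log2 fold change of -1.94 (SE 0.650, adjusted p = 0.0517), from 2 plaque values.

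miR-322 was near the limit of detection. It was detected in plaque 4 alone among plaque samples, at a Ct of 34.8, and in undiseased artery 1, 2 and 3 at 31.14, 34.6 and 32.03 (Fisher's exact test, two-sided p = 0.486). Its level in plaque 4, -8.50, lay within the undiseased range of -9.60 to -6.12. In plaque 1, 2 and 3 a Ct of 35 stands for levels of -7.87, -6.16 and -5.07, all above the lowest undiseased level. A fall of miR-322 below the undiseased range was therefore not detectable at this amount of RNA. At a cutoff of 32 it was detected in 0 plaque samples and 1 undiseased sample.

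Differences between members within a sample do not depend on the mean that is subtracted, and they show whether the members moved together. For each pair of the 4 members detected everywhere, the Ct difference was compared between groups by an exact permutation test of 70 arrangements (two-sided), adjusted over the 6 pairs. The smallest p this allows is 0.0286, so an adjusted p under 0.05 would need 4 of the 6 pairs at that value. No pair passed after adjustment, and 2 of 6 had an unadjusted p under 0.05. Of all 7626 pairs among the 124 miRNAs, 33.7% had groups that did not overlap.

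The Ct of miR-497 minus that of miR-195 was 1.59, 2.16, 2.32 and 1.52 in plaque 1 to 4, against 1.26, 1.27, 1.31 and 1.45 in undiseased artery 1 to 4. Each plaque sample was above each undiseased one, so miR-497 was lower relative to its neighbour. The mean was 1.90 ± 0.402 in plaque and 1.32 ± 0.0879 in undiseased artery (SD, n = 4 each), a difference of 0.58 cycles (exact p = 0.0286, adjusted p = 0.0857). Without plaque 2 and 3 it was 0.23 cycles, still without overlap (exact p = 0.0667, adjusted p = 0.133). That p is the smallest the exact test allows with so few samples, so no pair could pass in this setting. The spread of miR-497 minus miR-195 within groups, a pooled SD of 0.291 cycles, was smaller than that of all but 0.538% of the 7626 pairs. The next narrowest family pair, miR-497 with miR-16, had a pooled SD of 0.558 (5.97% of pairs were narrower). The pair miR-16 and miR-15b had 1.08 cycles, and 42.5% of pairs were narrower.

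miR-497 minus miR-16 was 3.83, 2.94, 3.12 and 4.40 cycles in plaque and 2.79, 2.01, 2.30 and 2.89 in undiseased artery, also without overlap. Its difference was 1.07 cycles (exact p = 0.0286, adjusted p = 0.0857), and 1.62 cycles without plaque 2 and 3 (exact adjusted p = 0.133). The 4 other pairs overlapped. Between groups they differed by 1.26 cycles for miR-497 minus miR-15b (adjusted p = 0.171), by 0.68 for miR-195 minus miR-15b (adjusted p = 0.343), by 0.50 for miR-195 minus miR-16 (adjusted p = 0.480) and by 0.18 for miR-16 minus miR-15b (adjusted p = 0.800), each by the exact test. miR-195 minus miR-16 rested on single samples: it was 0.096 cycles without plaque 4, 0.31 without plaque 1, 0.80 without plaque 2 and 0.79 without plaque 3. Without both plaque 2 and 3 it was 1.38 (exact adjusted p = 0.133), and the groups did not overlap. miR-195 minus miR-15b was 0.32 without plaque 1. miR-195 and miR-16, the closest in sequence, had a pooled SD of 0.792 cycles, wider than the neighbours miR-195 and miR-497.

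**Figure D3:**
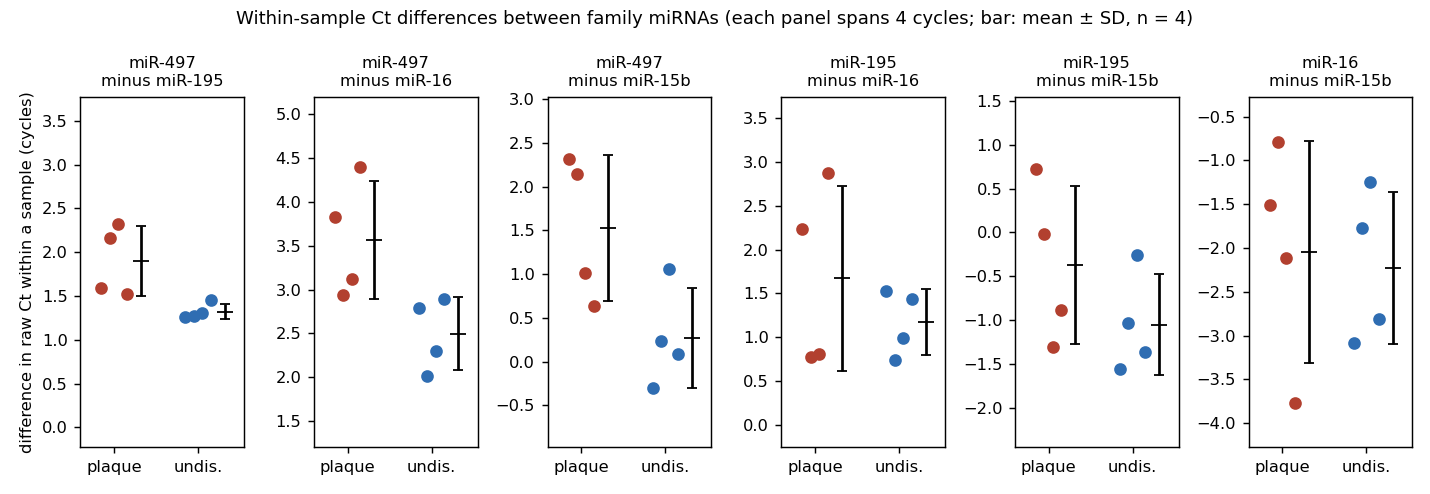
Difference in raw Ct (cycles) between 2 family miRNAs in the same sample, in plaque (red, left) and undiseased artery (blue, right), with 1 point a sample in the order 1 to 4 and bars for the mean ± SD (n = 4). All panels span the same number of cycles. miR-497 minus miR-195 is the tightest pair, at 1.26 to 1.45 in undiseased artery, and both it and miR-497 minus miR-16 are higher in every plaque sample.

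The profile most like each member was sought among the other 123 miRNAs detected in all samples, by the root mean square (RMS) difference of the 8 normalised levels after each assay's own mean was removed. For miR-497 these were miR-30c (0.293 cycles), its neighbour miR-195 (0.383) and miR-30d (0.436), where the median miRNA stood at 1.26. miR-30c and miR-30d were called lower as well, with log2 fold changes of -1.77 (adjusted p = 0.0117) and -2.02 (adjusted p = 0.0153). The difference between the groups is part of the RMS difference, so by construction the closest profiles tend to share it. For miR-195 they were miR-30b (0.345), miR-411 (0.364) and miR-152 (0.365), and miR-497 ranked 5. The closest to miR-16 were miR-872* (0.386), miR-30e (0.434) and miR-30a* (0.458), and the closest to miR-15b were let-7i (0.446), miR-199a-3p (0.633) and miR-152 (0.694). No family member was among the 3 closest to miR-16 or miR-15b. All profiles share the same 8 samples and the same subtracted mean.

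The other strands of the family's hairpins were assayed on the second panel. Of 6 listed, 4 had an assay and 1 was tested. miR-15a*, the 3p strand of the miR-15a hairpin, is shown since it was called higher, whereas miR-497 and miR-195 were called lower. Its own main strand, miR-15a, was not tested.
miR-15a* (RefSeq miR-15a-3p, capitals at bases 2 to 8): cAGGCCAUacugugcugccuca
Its raw Ct was 28.5, 30.7 and 26.8 in plaque 1, 3 and 4, and 40 in plaque 2, against 28.0, 27.5, 27.5 and 28.5 in undiseased artery 1 to 4. The levels of -1.36 to -0.55 in 3 plaque samples lay above the 4 undiseased levels of -3.01 to -1.88. It was called higher (log2 fold change 1.63, SE 0.501, adjusted p = 0.0349, plaque 2 missing from the fit). Of the 63 tested miRNAs of panel 2, 20 were called higher and 2 lower, with a median log2 fold change of 0.82. Among these 63, miR-15a* ranked 39 from the most negative. With values not detected set to the cutoff, which brings plaque 2 into the fit, the value was 0.32 (adjusted p = 0.857). With 1 sample left out it kept its call in 4 of 8 fits, and not without plaque 3 or undiseased artery 1, 2 or 3 (1.48 to 1.65). The fit without plaque 2, among the 4, left out no value of miR-15a* and gave the same 1.63. Centring the 2 panels separately gave 0.58 (adjusted p = 0.359), with quantile normalisation 0.58 (adjusted p = 0.534), and on raw Ct it was -0.80 (adjusted p = 0.545). In plaque 4, the only plaque sample with both strands, the Ct of miR-15a minus that of miR-15a* was 4.27, against -0.92 to 0.60 in undiseased artery. In plaque 1 and 3 miR-15a* was detected and miR-15a read 40. Plaque 2 went the other way, with miR-15a at a Ct of 32.2 and miR-15a* at 40. Across the panels, the Ct of U6 on panel 2 minus panel 1 averaged 0.825 in plaque and 0.895 in undiseased artery. For U87 it was 0.220 in plaque and 1.08 in undiseased artery, and for snoRNA135 -0.613 in plaque and 0.126 in undiseased artery. The part of the panels in the result was not tested.

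miR-16* was detected in plaque 4 (Ct 33.1) and in undiseased artery 2, 3 and 4 (Ct 31.8, 32.8 and 34.2). miR-322* was detected in plaque 4 (31.78) and in undiseased artery 1 and 3 (31.96 and 32.16), all of them samples in which miR-322 itself was detected. miR-15b* was detected in no sample.

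Relatives in the genome and in sequence were mostly below detection. Of 10 miRNAs listed for the miR-322 cluster, 8 had an assay, 5 were detected in no sample and 0 could be tested. Among those never detected were miR-503, which has a seed that ends in another base, and miR-351. The other strand, miR-503*, was detected in plaque 3 and 4 (Ct 32.3 and 30.0) and in all 4 undiseased samples (31.1 to 34.6). miR-503 and miR-103 are shown because their 5′ ends resemble the family's.
miR-503: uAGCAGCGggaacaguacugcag
miR-103: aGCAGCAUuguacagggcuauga
miR-103 has AGCAGCA at its very 5′ end, so that its seed is shifted by a base. It was not detected in plaque 3, and its levels in the other plaque samples were -3.14 to -0.75, against -1.64 to -0.29 in undiseased artery. Its log2 fold change of -1.22 (SE 0.646, adjusted p = 0.170) did not pass, though it did without plaque 1 (-1.85, adjusted p = 0.0472). miR-107, which shares that seed, was detected in 2 plaque and 3 undiseased samples.

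Among 6 other miRNAs known to repress cell cycle genes, 3 were tested and all 3 fell, where 18.6% of all tested miRNAs and 27.5% of those of panel 1 were called lower. let-7b had a log2 fold change of -1.75 (SE 0.551, adjusted p = 0.0351), miR-26a of -2.11 (SE 0.450, adjusted p = 0.00881) and miR-26b of -2.43 (SE 0.479, adjusted p = 0.00584). With 1 sample left out, miR-26a and miR-26b kept their calls in 8 of 8 fits and let-7b in 4 of 8. All are on panel 1. let-7a read between 22.0 and 22.3 in undiseased artery 1 to 3 and 40 in the other 5 samples, so it was not tested. miR-34a was detected in 2 plaque samples, at levels of 1.01 and 2.41, and in 3 undiseased ones, at -1.28 to -0.74. miR-34c was detected in 2 plaque samples at -5.00 and -4.46, against 2 undiseased ones at -8.96 and -7.81. Where they were detected, both were thus higher in plaque, opposite to the 3 that were tested. In plaque 2 and 3 both read 40, and the detection cutoff there stands for levels of -6.16 and -5.07. Unless those wells failed, miR-34a lay below its detected undiseased levels in these samples. It also read 40 in undiseased artery 4, so its direction was not settled. For miR-34c the cutoff levels of plaque 2 and 3 lie above its detected undiseased levels and cannot decide the direction.

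Some of the listed markers of cell types also differed between the groups. Of all 172 tested miRNAs 18.6% were called lower and 15.7% higher. Of the 109 tested on panel 1, which holds these markers, 27.5% were called lower and 7 higher. Both smooth muscle miRNAs, miR-143 and miR-145, were called lower, and their summed level was 2.90 to 6.12 in plaque, against 14.02 to 15.09 in undiseased artery. Of 7 leukocyte miRNAs 6 were tested, 2 of them (miR-155 and miR-146b) higher and 0 lower, and the summed level of the 5 detected everywhere was -7.95 to 4.37 in plaque and -11.1 to -6.06 in undiseased artery. Neither arm of the endothelial miR-126 passed, with a summed level of -6.29 to 1.15 in plaque and 0.43 to 3.08 in undiseased artery. Of 2 red cell miRNAs, miR-451 alone had an assay and did not pass. Of 5 heart muscle miRNAs, miR-1 and miR-133a were tested and did not pass, and miR-208b and miR-499 were detected in no sample. miR-208 was detected in 2 plaque samples, plaque 1 and 3 (Ct 31.4 and 34.0), and 0 undiseased samples. The part of cell makeup in the falls of miR-497 and miR-195 was not tested.

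The calls depended on the reference and on single samples. With the median, with quantile normalisation and with the family left out of the mean, both miR-497 (-2.84 to -1.81) and miR-195 (-1.97 to -1.24) were called lower. With each panel centred, miR-497 was called at -1.22 (adjusted p = 0.0397) and miR-195 was not (-0.65, adjusted p = 0.190). With the control RNAs the values were -2.26 for miR-497 (adjusted p = 0.203) and -1.69 for miR-195 (adjusted p = 0.344), further from 0 than with the mean yet not called, and with U6 they were -2.22 (adjusted p = 0.470) and -1.65 (adjusted p = 0.587). The control RNAs spread widely in plaque: U6 had a Ct of 17.9 ± 2.62 in plaque and 15.7 ± 0.664 in undiseased artery (SD, n = 4 each). The median of all tested miRNAs was -0.11 with the mean of the 124, -0.45 with the control RNAs, -0.44 with U6 and -1.02 with quantile normalisation. On raw Ct all 4 members were called lower, between -4.47 and -3.22, where the median of all tested miRNAs was -2.59.

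With 1 sample left out, miR-497 ranged from -1.97 to -1.60 and kept its call in 6 of 8 fits. It lost it without undiseased artery 2 (-1.75, adjusted p = 0.0649) or 3 (-1.71, adjusted p = 0.0579). miR-195 ranged from -1.32 to -1.14 and kept its call in 1 of 8, the fit without plaque 4 (-1.27, adjusted p = 0.0219). Without plaque 2 and 3 neither was called (adjusted p = 0.0637 at -1.38 for miR-497, and 0.108 at -1.15 for miR-195). Both values stayed below 0 in all 27 alternatives. miR-16 and miR-15b were below 0 in 25 of 27 each. Several of these alternatives, such as the exact permutation test and the minimum fold, left the fold change itself unchanged. Their signs were thus fixed beforehand and add nothing to these counts.

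**Figure D4:**
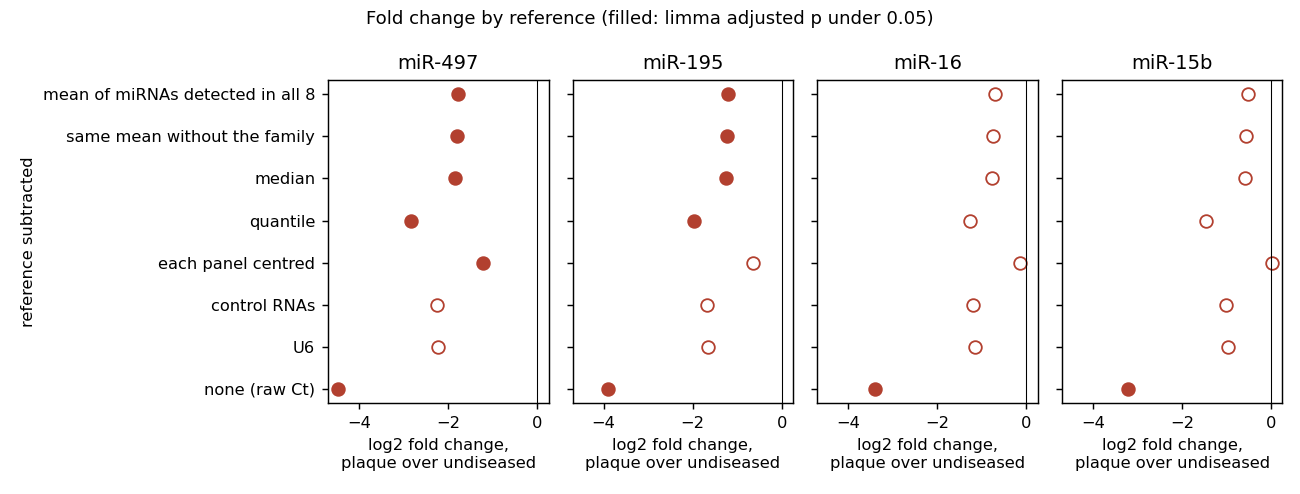
Log2 fold change, plaque over undiseased artery (x axis), of the 4 tested family miRNAs by the reference that was subtracted (y axis), filled where limma's adjusted p was under 0.05. miR-497 and miR-195 are left of 0 under all 8 references, and miR-15b stands at 0.033 with each panel centred.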

How the data were processed

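Real-time PCR values of 8 samples were used. The authors deposited 1 table of raw threshold cycles (Ct), in which 40 stands for no amplification and no sign of scaling was seen. Per the labels' protocols, RNA came from laser-captured, deparaffinized sections and probes carried FAM. Not given in the sources used here are instrument, preamplification and threshold. The table has 530 rows, 341 of panel 1 and 189 of panel 2, told apart by control RNAs that recur. Columns were matched to samples by group and number in the titles. The description of plaque 4 gives another replicate number, and the title was used. Repeated wells were averaged, values not detected were left missing, and levels were fitted in limma 3.58.1 (R 4.3.3, lmFit and eBayes, group as the only term, two-sided). The PCR tables give no counts, so detection stands for depth. The family, lists and alternatives were chosen with earlier results of these data known. Named miRNAs were the family, those listed assays that were tested or detected in 3 samples, the 3 nearest profiles and control RNAs. Other listed miRNAs were named after their values were seen. Same-numbered samples did not deviate together (correlations -0.24 to 0.19 over 124 miRNAs). Such correlations cannot settle whether same-numbered samples came from the same mouse. The main fit has no pairing because the labels give none. The fit was tested on simulated data. Sequences and positions are RefSeq's (GRCm38.p6).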

Additional observations from a re-analysis of the deposited data

Results flagged for a closer look

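Undiseased artery 4 amplified later than its group, with a mean Ct of 26.6 over the 124 miRNAs common to all samples, against 24.7 to 25.0 in the 3 other undiseased samples. The gap to the nearest sample was 0.830 of the group's range. Of 34 groups of 4 values checked this was the only such sample. By chance about 1 such group in 20 is flagged, so a single flag among 34 is not unusual. Without undiseased artery 4 the log2 fold changes were -1.77 for miR-497 (adjusted p = 0.0286), -1.15 for miR-195 (adjusted p = 0.0721), -0.57 for miR-16 (adjusted p = 0.548) and -0.58 for miR-15b (adjusted p = 0.546).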

How the results depend on the processing

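Against 59 calls among all 172 tested miRNAs, there were 2 with control RNAs and 2 with U6 as reference, 35 with each panel centred, 19 with a minimum fold of 1.5, 13 with each sample's mean Ct as a covariate, 36 without plaque 2 and 3, and 19 to 79 with 1 sample left out. The exact permutation test per miRNA gave 0 (lowest adjusted p 0.0964). Its smallest possible p is 0.0286, so a call needs many more miRNAs at that value than the 51 with an unadjusted p under 0.05. Its 0 calls, in the family too, therefore do not show an absence of differences. Against 2 family calls, there were 4 on raw Ct, 1 with a cutoff of 38, with each panel centred, with no filter and with replicate number as a block, and 0 with control RNAs, U6, the exact permutation test (2 unadjusted), a minimum fold of 1.5, the covariate or without plaque 2 and 3. Leaving out 1 sample gave 0 to 2. With the replicate block miR-497 stayed called (adjusted p = 0.0397), and miR-195 was not (adjusted p = 0.112), nor was miR-15a* (adjusted p = 0.0832). Signs turned for miR-15b with each panel centred (0.0329) and with the covariate (0.16), for miR-16 with the covariate (0.53) and without plaque 2 and 3 (0.23), and for miR-15a* on raw Ct (-0.80). miR-16 minus miR-15b turned without plaque 2 and 3 (-0.41 cycles) and ran from -0.23 to 0.76 with 1 sample left out. The cause was not tested. The pair tests gave 0 calls in all 15 alternatives, limma on the pair differences with a replicate block included. Without plaque 2 and 3 the exact test could give none, as its smallest p there is 0.0667. In plaque 1, 2 and 3 the level at a Ct of 35 was above the lowest undiseased level of miR-322, so a fall below the undiseased range was not detectable there.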
